A study of Mus musculus with 6 samples.

Results

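The genes described here are 10 regulators of oxidative metabolism, namely Ppargc1a, Ppara, Ppard, Esrra, Esrrb, Esrrg, Prkaa2, Sirt1, Nrf1 and Tfam. They were chosen by name, for their known roles, with earlier results of these data known. They are 10 of the 22921 genes with a RefSeq transcript that could be placed on NCBI Build 37 (mm9) of the mouse genome. Their Sox6 peaks, and the reads of Sox6, RNA polymerase II (Pol II) and input chromatin at their start sites and over their bodies, are reported. The transcription factor Sox6 is known in skeletal muscle for its part in fiber type specification, and since slow fibers are rich in mitochondria, the question put to the data was whether Sox6 and Pol II lie at the genes that regulate oxidative metabolism.

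All 6 libraries came from the same kind of cells. Myoblasts of wild type C57BL/6 fetal limb muscle (E18.5, passage 17) were differentiated to myotubes for 48 hours in medium with 2% horse serum. Chromatin was immunoprecipitated (ChIP) with an antibody to Sox6 or to Pol II and sequenced, 2 libraries for each antibody, and chromatin before immunoprecipitation was sequenced as 2 input libraries. There was no genotype or treatment to compare, so each comparison is of a ChIP with input, and the cells are a culture without nerve or load.

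The aligned reads number 1538757 and 2762155 for Pol II, 2985437 and 1468604 for Sox6, and 21973495 and 24249850 for input, in replicates 1 and 2. The ChIP libraries are therefore shallow, and a start site window of 1 kb held at most 8 Pol II reads for any of the 10 genes. The study describes the ChIP experiments as independent, but neither it nor the labels say whether the replicates came from separate cultures, so p-values measure the spread between these libraries and counting error. The label of the cells was checked against lists of marker genes. Pol II was higher than input over the bodies of 10 of 10 myotube markers, and over 0 of 8 fibroblast, 0 of 6 adipocyte, 0 of 4 liver and 0 of 3 tested blood cell markers, while 2 of 5 neuronal markers were higher.

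These genes form a chain of control over mitochondria. AMP-activated protein kinase, whose α2 catalytic subunit is Prkaa2, and the NAD-dependent deacetylase Sirt1 sense the energy state of the cell and act on the coactivator Ppargc1a (PGC-1α). Ppargc1a works through nuclear receptors, the peroxisome proliferator-activated receptors Ppara and Ppard and the estrogen-related receptors Esrra, Esrrb and Esrrg, which switch on fatty acid oxidation and respiratory genes. It also works through nuclear respiratory factor Nrf1, which activates respiratory genes and Tfam, the factor that activates transcription of mitochondrial DNA and packs it.

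Sox6 peaks were found at 1 of the 10 genes in the list common to both replicates. Esrrg, a receptor known from oxidative muscle and heart, held 2 common peaks, both in introns and far from its start site. No common peak lay in or within 20 kb of the other 9 genes. Among all 22921 genes, 980 (4.28%) had such a peak, and 133 of the 901 genes of 200 kb or longer (14.8%), a class to which Esrrg belongs with 605358 bp. The share of 1 in 10 is thus read against 4.28% and a gene length that holds many peaks elsewhere.

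The bases under the peaks are given because they are the sites at which Sox6 reads gathered. They were read from the mm9 sequence on the strand of the gene, and capitals mark matches to ACAAAG or ACAATG, the core that Sox factors bind, and to the E-boxes CAGCTG or CAGGTG, on either strand.
Esrrg intron 2, chr1:189731882-189732001: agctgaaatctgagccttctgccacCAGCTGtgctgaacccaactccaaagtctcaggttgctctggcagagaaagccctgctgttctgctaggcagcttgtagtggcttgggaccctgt
Esrrg intron 3, chr1:189881762-189881901: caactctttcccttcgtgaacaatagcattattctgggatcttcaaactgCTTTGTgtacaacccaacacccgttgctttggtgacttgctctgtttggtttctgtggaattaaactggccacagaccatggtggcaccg
Prkaa2 intron 6, chr4:104718172-104718331: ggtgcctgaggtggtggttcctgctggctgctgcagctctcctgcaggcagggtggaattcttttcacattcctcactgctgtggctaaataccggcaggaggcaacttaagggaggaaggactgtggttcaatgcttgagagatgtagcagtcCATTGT
Prkaa2 upstream, chr4:104806302-104806441: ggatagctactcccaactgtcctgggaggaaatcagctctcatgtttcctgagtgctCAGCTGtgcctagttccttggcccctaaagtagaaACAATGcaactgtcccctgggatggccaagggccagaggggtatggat

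The site in intron 3 of Esrrg holds a Sox core and that in intron 2 an E-box with no Sox core. Of all 1066 common peaks, 49.4% hold a Sox core and 54.5% an E-box within 140 bp around their centre, so neither match sets these sites apart. By another measure, a motif search with MEME, the study found Sox and E-box motifs in more of these peaks. A match is a run of letters and was not tested as a binding site.

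The Esrrg peak in intron 2 of 7 lay 299 kb past the start site and the peak in intron 3 lay 448.9 kb past it. In the 450 bp around the centre of the intron 2 peak Sox6 replicates 1 and 2 had 13 and 10 reads where the inputs had 8 and 11, or, per 1000000 reads of the library (RPM), 4.35 and 6.81 RPM of Sox6 against 0.364 and 0.454 RPM of input. Around the intron 3 peak Sox6 had 14 and 10 reads and input again 8 and 11. In both windows every Sox6 library was above every input library, by 12- and 15-fold within replicates 1 and 2 at intron 2 and by 12.9- and 15-fold at intron 3. These folds come from the reads on which the peaks were called and carry no test. Their log2 ratios over both replicates, 3.65 and 3.71, were close to the median of all common peaks, 3.45 (quartiles 2.98 and 4.01).

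Equally wide windows at a distance of 2 kb from the intron 2 peak held 0 to 3 Sox6 reads per library, and those beside the intron 3 peak held 0 or 1. The reads were thus gathered close to the centre, as the plot of reads around the peaks shows. Both Esrrg sites were also called in each single-replicate list, so the reads of either replicate had made a call there and no reads were left for a test.

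**Figure D1:**
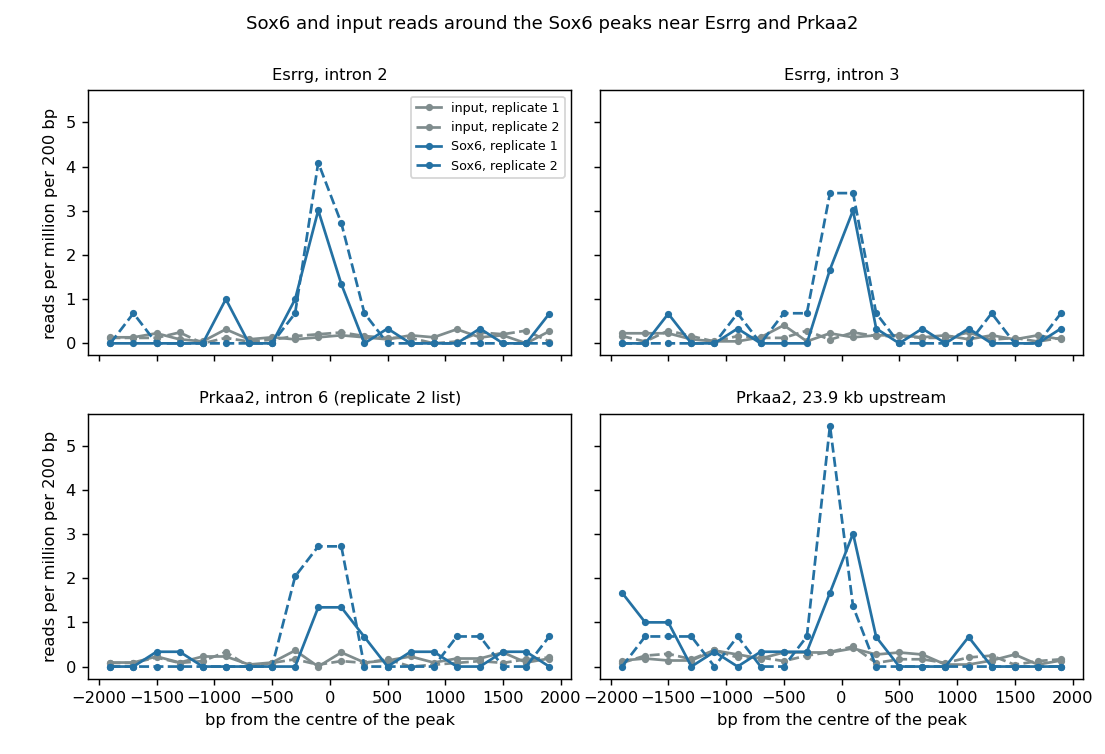
RPM in steps of 200 bp (vertical axis) by distance in bp from the centre of each Sox6 peak (horizontal axis), with Sox6 in blue and input in grey, replicate 1 as solid and replicate 2 as dashed lines. At all 4 sites the Sox6 lines of both replicates rise at the centre above the input lines, which are themselves highest near the centre upstream of Prkaa2 (0.410 and 0.454); the lower pair of panels shows Prkaa2, where replicate 1 is the lower of the 2 Sox6 lines in intron 6.

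Prkaa2, the catalytic subunit of the kinase that predominates in skeletal muscle, had a Sox6 peak in intron 6 of 8, 64.24 kb past its start site, in the list of replicate 2 only. Sox6 had 8 and 8 reads in the window and input 7 and 5, or 2.68 and 5.45 RPM of Sox6 against 0.319 and 0.206 RPM of input. With the reads of replicate 1, in which it was not called, the site was 8.41-fold above input (adjusted p = 0.000222, exact two-sided binomial test adjusted over all peaks of the list), in a test that covers counting error only. Of all peaks in the list of replicate 2, 84.4% passed with the reads of replicate 1, a share that includes peaks called in both. A further peak, common to both replicates, lay 23.88 kb upstream of the start site, outside the limit of 20 kb and a little nearer to the gene Plpp3 than to Prkaa2. Sox6 had 14 and 10 reads there. Input had 17 and 19, more than the 5 to 8 input reads of equally wide windows at a distance of 2 kb. A peak of replicate 1 alone, at -22.18 kb, had 10 and 2 Sox6 reads against 8 and 10 of input and did not pass with the reads of replicate 2 (3.3-fold, adjusted p = 0.180, exact binomial test), where 67.0% of all peaks in the list of replicate 1 passed.

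For the other 8 genes no Sox6 peak of any list lay in or within 20 kb. The nearest common peak was 70.62 kb from Nrf1, inside the gene Ube2h, 176.5 kb from Ppargc1a, 190.4 kb from Sirt1 and 375.7 kb from Esrrb. From Ppard, Tfam, Esrra and Ppara it was 749.5, 1489, 2108 and 3473 kb away. Ppargc1a is still the nearest gene to the peak 176.5 kb away. It is the only other of the 10 that would gain a common peak if each peak went to its nearest gene. The study marks Ppargc1a as a gene associated with Sox6 binding. In adult muscle lacking Sox6 it reported no noticeable increase of Ppargc1a mRNA, which was generally below control in the MCK-Cre knockout. It proposes that Sox6 regulates structural genes of fiber types and not the genes that set the metabolic state.

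More Pol II than input was not called at either Esrrg site. The intron 2 window held 0 and 5 Pol II reads in replicates 1 and 2 (log2 ratio to input 1.5 ± 0.80 (SE), adjusted p = 0.157) and the intron 3 window held 0 and 0 (adjusted p = 0.179). Neither passed the test. Of the 1060 common Sox6 peaks tested, 516 (48.7%) had more Pol II than input, so 2 sites that were not called do not set Esrrg apart. With 0 reads in either library the limit is 3 reads, or 0.698 RPM, above the input level of these windows, so less Pol II than input was not detectable there.

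At start sites, Sox6 was called above input for 0 of the 8 genes with enough reads for the test (10 over 4 libraries), against 74 of all 18761 genes tested (0.394%). At an unadjusted p under 0.05 the count for the 8 genes was also 0. Esrra, Sirt1 and Nrf1 had 0 Sox6 reads in both replicates, where the inputs had 6 and 10, 7 and 8, and 6 and 7. A count of 0 in both libraries allows up to 3 reads, or 0.674 RPM, which is 1.95-fold the input at Esrra, 2.08-fold at Sirt1 and 2.39-fold at Nrf1, so neither a small excess nor a loss was detectable at this depth. Among the 8 tested starts Prkaa2 had the highest ratio, with 3 and 2 Sox6 reads against 6 and 9 input reads. It was 3.68- and 3.67-fold above input in replicates 1 and 2 (log2 1.79 ± 0.88, adjusted p = 0.736). Tfam had 2 and 3 Sox6 reads against 14 and 14 of input. Ppargc1a had 1 and 1 Sox6 reads, Ppard 1 and 0 and Esrrb 3 and 1. Of the 2 genes not tested, Ppara had 0 and 2 against 1 and 4 input reads. Esrrg had 2 and 0 against 1 and 2.

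Over gene bodies, counted from 500 bp past the start site to the end of the gene, Sox6 lay near input, and 1 of the 10 genes passed the test (background 2.57%). Esrrb, a receptor best known from embryonic stem cells, had 258 and 130 Sox6 reads against 1347 and 1485 input reads, so 86.4 and 88.5 RPM of Sox6 stood above 61.3 and 61.2 RPM of input (log2 0.51 ± 0.13, adjusted p = 0.0483). No Sox6 peak of any list lay in Esrrb. The call was lost with each repeated position counted once and with the whole gene counted (adjusted p = 0.0556 in each), and without Sox6 replicate 1 or 2 (adjusted p = 0.783 and 0.671), with the log2 ratio between 0.49 and 0.53. Esrrg, despite its 2 peaks, had 858 and 422 Sox6 reads over its body against 6192 and 6374 of input (log2 0.08 ± 0.12, adjusted p = 0.782), so the peaks made up a small part of its Sox6 reads. The other ratios ran from -0.36 for Ppargc1a to 0.55 for Esrra, with a median of 0.08 for the 10 genes and 0.13 for all genes. With the replicate number as a block, a further 2 genes were called. Far more of all genes were called higher in that fit as well, as the last section gives. Sox6 was then lower than input over Ppargc1a (log2 -0.41, adjusted p = 0.00568, against 0.328 without the block). It was higher over Ppard (log2 0.48, adjusted p = 0.00164, against 0.193). Without input replicate 2 the log2 ratios of Ppargc1a and Ppard were -0.49 and 0.57.

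At start sites Pol II was higher than input for 6 of the 8 genes tested (Nrf1, Sirt1, Prkaa2, Ppargc1a, Esrra and Tfam) and lower for 0, where 41.1% of all 18664 genes tested were higher. Ppargc1a was called at the start of its CCDS model and not at its RefSeq start (log2 0.43, adjusted p = 0.713). The median log2 ratio of the 8 genes was 2.24 and that of all genes tested 1.29. Over the bodies it was higher for 5 of 10 genes (Esrra, Tfam, Sirt1, Ppard and Prkaa2) and lower for 3 (Esrrg, Ppara and Ppargc1a), against 36.5% higher and 24.4% lower among all 19640 genes tested. The levels were small beside that of Actb. Actb, the cytoplasmic actin gene taken as the reference, had 26.4 and 35.8 RPM per kb (RPKM) of Pol II over the whole gene, and the 10 genes had between 0.202 and 2.37. Actb was itself above 99.9% of all genes in each replicate. Of the 10, Esrra was above 85.4% and 89.1% of all genes in replicates 1 and 2, and Nrf1 above 61.3% and 65.2%. Ppargc1a was above 46.2% and 47.3%, and Esrrg, the lowest, above 34.6% and 30.8%.

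**Figure D2:**
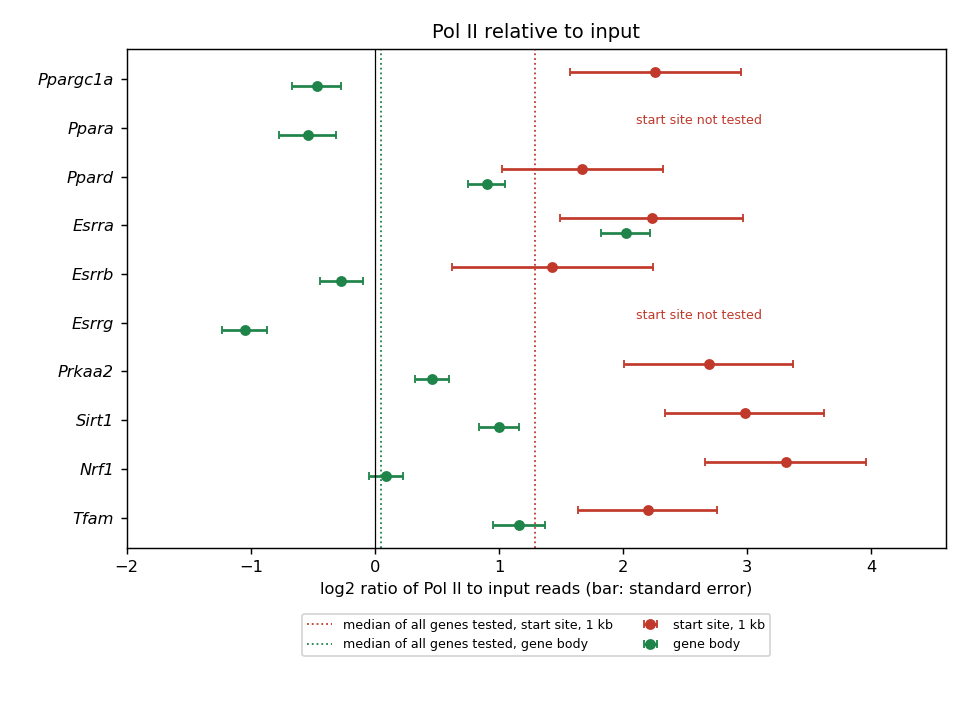
Fitted log2 ratio of Pol II to input reads (horizontal axis) for each gene (vertical axis), at the start site in red and over the body in green, with bars of 1 standard error. Dotted lines mark the medians of all genes tested, 1.29 at starts and 0.05 over bodies; 6 start sites and 5 bodies were called higher and 3 bodies lower.

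Per length over the whole gene, the 10 genes fell into 3 levels of Pol II. Esrra had 1.92 and 2.37 RPKM, Sirt1 1.88 and 2.01 and Tfam 1.88 and 1.53, where the ranges of Esrra and Sirt1 overlapped and the higher value of Tfam equalled the lower of Sirt1 at this precision. Ppard followed with 1.07 and 0.890, Prkaa2 with 0.934 and 0.846 and Nrf1 with 0.764 and 0.882, again with overlap between neighbours. Both values of each gene of the upper level were above both values of every gene of the middle level.

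Below them stood Ppargc1a with 0.411 and 0.418, Esrrb with 0.364 and 0.300, Ppara with 0.252 and 0.232 and Esrrg with 0.244 and 0.202 RPKM, of which the ranges of Ppara and Esrrg overlapped. Input over the same genes was between 0.335 RPKM in Ppara and 1.01 in Sirt1, so part of the order is that of input, and the ratios given next put each gene against its own input.

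The energy sensors carried Pol II at the start and along the gene. Prkaa2 (chr4:104702479-104782495, minus strand) had 4 and 5 Pol II reads in the 1 kb around its start in replicates 1 and 2 against 6 and 9 input reads, or 2.60 and 1.81 RPM against 0.273 and 0.371 RPM. Each Pol II library was above each input library (log2 2.69 ± 0.68, adjusted p = 0.00177). Over the body it had 112 and 185 reads against 1127 and 1186 (log2 0.46 ± 0.14, adjusted p = 0.00749), a call lost without Pol II replicate 1 or 2 (adjusted p = 0.159 and 0.200). A Pol II peak of replicate 2 lay 0.90 kb upstream of the start, with no counterpart in replicate 1.

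Sirt1 (chr10:62781755-62801780, minus strand) had 3 and 8 Pol II reads at its start against 7 and 8 input reads, or 1.95 and 2.90 RPM against 0.319 and 0.330 (log2 2.98 ± 0.64, adjusted p = 0.000159). Without Pol II replicate 2 the call was lost (log2 2.59, adjusted p = 0.117). Over the body it had 58 and 109 against 443 and 457 reads (log2 1.0 ± 0.16, adjusted p = 1.34e-05), and no library left out changed that call. Per length, Pol II at this start, with 1.95 and 2.89 RPKM, was 1.01 and 1.43 times that along the gene, with 1.93 and 2.02. Input was thinner at the start, at 0.318 and 0.330 RPKM against 1.03 and 0.965 over the body. An annotated start upstream, at -42.67 kb, had 5 and 1 Pol II reads against 30 and 21 of input, and with that start the ratio was 0.34 (adjusted p = 0.750). With the body of each gene cut into 10 equal segments, segment 9 of Sirt1 held 8 and 27 Pol II reads. A Pol II peak of replicate 2 lay there, 17.47 kb past the start. Herc4, on the opposite strand, ends 21158 bp past the start of Sirt1, beyond the end of Sirt1 at 20026 bp. Whether any of these reads belong to Herc4 was not tested.

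Input was thinner at the start than over the body in both replicates for 8 of the 10 genes, all but Ppard and Esrrb, and for 45.3% of all genes. Pol II was denser at the start than over the body in both replicates for 7 of the 10, Ppargc1a, Ppara, Esrrb, Prkaa2, Sirt1, Nrf1 and Tfam, and for 42.8% of all genes. With the Sox6 libraries in place of input, a background of similar depth chosen after seeing the data, 5 of the starts held enough reads and Nrf1 and Sirt1 were called. These were the starts with 0 and 0 Sox6 reads, and they reached the 10 reads needed through Pol II alone. Their calls thus set Pol II against a count of 0 and add no support. Ppargc1a (log2 2.05, adjusted p = 0.101), Tfam (1.31, 0.151 by the same test) and Prkaa2 (0.90 and 0.362), the starts with Sox6 reads, were not called.

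**Figure D3:**
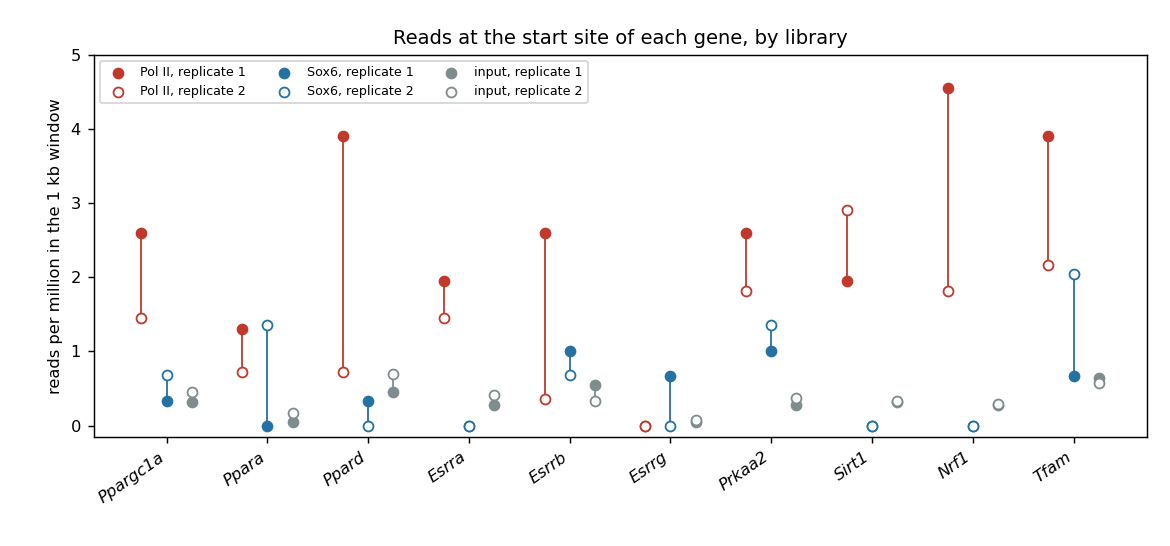
RPM in the 1 kb around each start site (vertical axis) for the 10 genes (horizontal axis), with Pol II in red, Sox6 in blue and input in grey, filled points for replicate 1, open points for replicate 2 and a line joining them. Nrf1 reaches 4.55 and 1.81 for Pol II with 0 and 0 for Sox6, and Esrrg has 0 and 0 for Pol II.

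The coactivator Ppargc1a (chr5:51845488-51945160, minus strand) had Pol II near its start and little along the gene. At the start it had 4 and 4 reads against 7 and 11, or 2.60 and 1.45 RPM against 0.319 and 0.454 (log2 2.26 ± 0.69, adjusted p = 0.0110). The libraries did not overlap, yet the call was lost without Pol II replicate 1 (log2 1.89, adjusted p = 0.160) and with 250 bp on each side (log2 1.97, adjusted p = 0.130). Over the body it had 62 and 111 reads against 1336 and 1238, or 40.3 and 40.2 RPM against 60.8 and 51.1 (log2 -0.47 ± 0.20, adjusted p = 0.0388). That lower call depended on the scaling: scaled to 10 kb bins of the genome without a peak, where 64.6% and 63.7% of Pol II reads but 91% and 89.5% of input reads lay, the ratio was 0.03 (adjusted p = 0.922). It was also lost without Pol II replicate 1 or 2 (adjusted p = 0.190 and 0.390), with the Sox6 libraries in place of input (log2 -0.11, adjusted p = 0.586) and with the whole gene counted (log2 -0.43, adjusted p = 0.05 after rounding, not below the threshold).

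Within the body of Ppargc1a the first of the 10 segments, 9.92 kb long, held 19 of 62 and 32 of 111 Pol II reads (30.6% and 28.8%), and 12.3% and 15.2% of input reads. That is 1.25 and 1.17 RPKM of Pol II, against a mean of 0.313 and 0.320 over the other segments. Sox6 put 17.3% and 21.7% of its reads there. The start used is that of the CCDS model, while the RefSeq start lies upstream, at -13.8 kb. There Pol II had 1 and 4 reads against 20 and 20 of input, and with the RefSeq start the call was lost (log2 0.43, adjusted p = 0.713). Sox6 had 8 and 3 reads at the RefSeq start, or 2.68 and 2.04 RPM against 0.910 and 0.825 RPM of input, which was not called in the fit with the most upstream starts (log2 1.51, adjusted p = 0.535). The promoter of the start used, 250 bases before to 50 after it, is shown because Pol II was called above input at this start and not at the upstream one. Capitals mark a match to the cAMP response element TGACGTCA, 84 bases before the start, which 2.41% of all promoters hold.
Ppargc1a promoter, chr5:51945111-51945410: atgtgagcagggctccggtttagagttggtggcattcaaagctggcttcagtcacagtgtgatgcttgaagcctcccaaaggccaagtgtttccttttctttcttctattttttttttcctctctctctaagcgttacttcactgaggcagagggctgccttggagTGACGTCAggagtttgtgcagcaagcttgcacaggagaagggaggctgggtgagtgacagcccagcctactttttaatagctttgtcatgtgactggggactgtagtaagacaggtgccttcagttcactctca

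Nrf1 (chr6:29997988-30103458, plus strand) had the highest ratio at the start among the 10 genes. It had 7 and 5 Pol II reads against 6 and 7, or 4.55 and 1.81 RPM against 0.273 and 0.289, every Pol II library above every input (log2 3.31 ± 0.65, adjusted p = 2.11e-05). The call held in each of the 12 other settings in which it had enough reads, with adjusted p up to 0.0243. Over the body it had 121 and 257 reads against 1880 and 1933 (log2 0.09 ± 0.14, adjusted p = 0.602), so no difference was shown there, but scaled to bins without peaks it was higher (log2 0.59, adjusted p = 0.00137).

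As in Ppargc1a, Pol II gathered in the first segment of Nrf1, which held 31 of 121 and 63 of 257 reads (25.6% and 24.5%) against 11.5% and 10.9% of input reads. Sox6 put 8.29% and 13% of its reads there. How often Pol II gathers in the first segment among all genes was not counted, so the pattern is not shown to be particular to Ppargc1a and Nrf1. The later start of Nrf1, 28.33 kb into the gene, had 2 and 4 Pol II reads against 17 and 13 of input. The promoter of Nrf1 is 77.0% G and C, against a median of 56.0% for all promoters, and holds none of the 4 motifs searched, GCGCATGC (NRF-1), CCGGAAG (NRF-2), AAGGTCA (ERR) and TGACGTCA; it is shown as the start with the highest Pol II ratio.
Nrf1 promoter, chr6:29997738-29998037: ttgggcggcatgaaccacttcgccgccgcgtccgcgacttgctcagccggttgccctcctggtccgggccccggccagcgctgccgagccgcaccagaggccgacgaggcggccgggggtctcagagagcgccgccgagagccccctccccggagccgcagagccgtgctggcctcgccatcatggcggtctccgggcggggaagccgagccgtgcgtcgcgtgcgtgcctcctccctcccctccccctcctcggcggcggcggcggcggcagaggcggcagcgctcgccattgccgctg

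**Figure D4:**
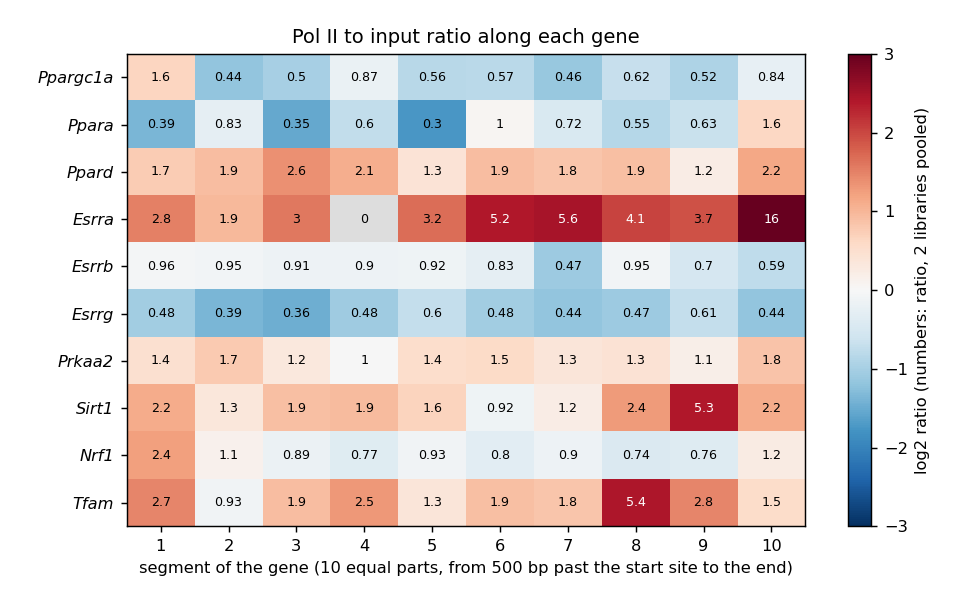
Ratio of Pol II to input in each of 10 equal segments of the 10 genes, from 500 bp past the start site (left) to the end (right), both replicates pooled; the number is the ratio, the color its log2, and grey marks a segment with no Pol II read. The first segment of Ppargc1a (1.56) and Nrf1 (2.36) is above their other segments, Esrrg stays below 1 throughout, and the last segment of Esrra reaches 16.1.

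Tfam (chr10:70688212-70701028, minus strand) was called at the start and over the body. The start had 6 and 6 Pol II reads against 14 and 14, or 3.90 and 2.17 RPM against 0.637 and 0.577 (log2 2.20 ± 0.56, adjusted p = 0.00178), and the call was lost without Pol II replicate 1 (log2 1.84, adjusted p = 0.0902) and with 250 bp on each side (log2 1.92, adjusted p = 0.0537). The body had 33 and 50 reads against 203 and 197 (log2 1.16 ± 0.21, adjusted p = 9.07e-05), with no call changed by any library left out. In segment 8 of Tfam there were 3 and 16 Pol II reads, so much of that part came from replicate 2.

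Among the peroxisome proliferator-activated receptors, Pol II was above input over the body of Ppard and below it over that of Ppara. Ppard (chr17:28369699-28438414, plus strand), the form that is widespread in muscle, had 109 and 167 Pol II reads over its body against 687 and 901 of input, or 70.8 and 60.5 RPM against 31.3 and 37.2 (log2 0.90 ± 0.15, adjusted p = 2.74e-05). At its start it had 6 and 2 reads against 10 and 17, so 3.90 and 0.724 RPM of Pol II met 0.455 and 0.701 of input, with replicate 2 close to input. The start missed the threshold (log2 1.67 ± 0.65, adjusted p = 0.0537) and passed it in 7 of 14 other settings. These were the fits without Pol II replicate 2 (log2 2.74, adjusted p = 0.0171) or input replicate 2 (log2 2.03, adjusted p = 0.0301), and those scaled to bins without peaks, with positions counted once, with limma on 0.5 reads added, with at least 30 reads and with 250 bp on each side, with adjusted p from 0.00921 to 0.0485.

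Ppara (chr15:85566206-85633249, plus strand), the main form of the liver, had 2 and 2 Pol II reads at its start against 1 and 4 of input, too few for the test. Its body had 25 and 42 against 507 and 540, or 16.2 and 15.2 RPM against 23.1 and 22.3, with Pol II below input in every library (log2 -0.54 ± 0.23, adjusted p = 0.0361). Scaled to bins without peaks the ratio was -0.04 (adjusted p = 0.882), and the call was lost without Pol II replicate 1 or 2 (adjusted p = 0.173 and 0.453). The difference between the ratios of Ppard and Ppara was not tested.

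The estrogen-related receptors spread over the whole range. Esrra (chr19:6985467-6996298, minus strand), a partner of Ppargc1a at respiratory genes, had the highest Pol II ratio over the body, with 31 and 71 reads against 118 and 152, or 20.1 and 25.7 RPM against 5.37 and 6.27 (log2 2.02 ± 0.20, adjusted p = 1.97e-08). The call held in all 14 other settings. At its start it had 3 and 4 reads against 6 and 10 (log2 2.23 ± 0.74, adjusted p = 0.0200). That call was lost without Pol II replicate 1 (adjusted p = 0.124), Pol II replicate 2 (0.129) or input replicate 1 (0.0718), all by the same test, and with the replicate number as a block (0.0609).

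Pol II in Esrra was no denser at the start (1.95 and 1.45 RPKM) than over the body (1.95 and 2.49), and its last segment held 6 and 12 reads against 3 and 9 of input. The neighbor Trmt112, on the opposite strand, starts just past the end of Esrra and its own end overlaps that of Esrra. Prdx5, on the strand of Esrra, starts inside Trmt112. The centre of a Pol II peak of each replicate lay inside both Trmt112 and Prdx5, 0.99 and 1.07 kb past the end of Esrra, and both peaks extended past the start of Prdx5, that of replicate 2 also past the start of Trmt112. ChIP reads carry no strand of transcription, so those near this end cannot be assigned to any of the 3 genes. A further Pol II peak of replicate 2 lay inside Esrra, 6.27 kb past its start. In all, Pol II peaks lay inside 0 of the 10 genes in replicate 1, where 11.5% of all genes held one, and inside 2 (Esrra and Sirt1) in replicate 2, where 15.8% did.

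Esrrb (chr12:87702067-87862578, plus strand) did not pass the test at either place. Its start had 4 and 1 Pol II reads against 12 and 8 (log2 1.43 ± 0.81, adjusted p = 0.209), and its body 86 and 132 against 1347 and 1485 (log2 -0.27 ± 0.17, adjusted p = 0.144). The 95% interval of the body ratio, -0.60 to 0.05, leaves room for a small deficit, and the body was called lower without input replicate 1 (adjusted p = 0.0253) or 2 (0.0247 by the same test) and with the replicate block (0.0446), and with the Sox6 libraries in place of input (log2 -0.78, adjusted p = 1.24e-07).

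Esrrg (chr1:189432908-190038265, plus strand), the gene with the Sox6 peaks, had the least Pol II. There was no Pol II read at its start in either library, against 1 and 2 input reads, which was too few to test, and 0 reads allow up to 0.698 RPM. The other RefSeq starts were as poor, with 0 and 0 Pol II reads 42.73 kb into the gene and 1 and 1 at 388.80 kb. A further annotated start, 0.67 kb into the gene and not a RefSeq start, had 0 and 3 Pol II reads. Input had 4 and 3 reads there. Its body had 227 and 338 Pol II reads against 6192 and 6374, or 148 and 122 RPM against 282 and 263 (log2 -1.05 ± 0.18, adjusted p = 2.63e-06). Every segment had less Pol II than input, from 0.36- to 0.61-fold. Scaled to bins without peaks the body was still lower (log2 -0.55), while without Pol II replicate 2 the call was lost (log2 -0.88, adjusted p = 0.112).

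Scaling to bins without peaks moved the median Pol II ratio over the bodies of all genes from 0.05 to 0.54, and the calls from 7164 higher and 4792 lower to 8922 and 2271. The sign against input changed for Ppargc1a and Esrrb, and Nrf1 joined those called higher.

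The letters GCGCATGC, the core that Nrf1 binds, were found in the promoters of Ppara and Esrra, 2 of the 10 genes, and in 3.39% of all promoters. The NRF-2 and ERR letters were in 0 of the 10 promoters and in 11.2% and 3.80% of all promoters. The pair of promoters is shown with these matches in capitals; in Ppara 2 matches on opposite strands overlap, 31 and 29 bases before the start, and in Esrra the match is on the minus strand of the gene, 34 bases before it.
Ppara promoter, chr15:85565956-85566255: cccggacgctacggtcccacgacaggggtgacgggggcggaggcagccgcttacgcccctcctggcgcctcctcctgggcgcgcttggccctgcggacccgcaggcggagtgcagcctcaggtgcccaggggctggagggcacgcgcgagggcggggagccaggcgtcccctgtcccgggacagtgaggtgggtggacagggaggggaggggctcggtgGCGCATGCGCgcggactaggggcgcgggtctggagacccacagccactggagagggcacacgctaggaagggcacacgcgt
Esrra promoter, chr19:6996249-6996548: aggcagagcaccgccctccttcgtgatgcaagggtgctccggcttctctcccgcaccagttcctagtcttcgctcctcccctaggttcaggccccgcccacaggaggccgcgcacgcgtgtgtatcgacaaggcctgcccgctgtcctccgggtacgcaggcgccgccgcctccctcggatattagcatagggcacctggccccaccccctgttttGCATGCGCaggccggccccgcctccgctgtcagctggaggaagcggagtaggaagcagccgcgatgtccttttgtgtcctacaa

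Of these 2 receptors only Esrra had Pol II above input over its body, and neither held a Sox6 peak. The promoters of the 10 genes ranged from 49% G and C in Ppargc1a to 78.7% in Sirt1.

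The partners of the 10 genes were taken from 5 lists of related genes, none of which holds one of the 10. Their counts stand beside the shares of all genes, 41.1% of starts and 36.5% of bodies with more Pol II, 24.4% of bodies with less, and 4.28% of genes with a common Sox6 peak in or within 20 kb. Of the other subunits and upstream kinases of AMP-activated kinase, 6 of 9 tested starts and 7 of 10 bodies had more Pol II than input, and 1 body had less. The highest start ratios were those of Prkag3, the γ subunit of glycolytic muscle (log2 5.66 ± 0.40, adjusted p = 1.28e-61), and Stk11, the upstream kinase LKB1 (4.15 ± 0.50, adjusted p = 2.94e-14). The lowest were Prkaa1, the other catalytic subunit, with 0 and 3 Pol II reads (1.43 ± 1.08), and Camkk2 with 1 and 2 (1.55 ± 1.10), neither of which passed. The reads of Prkag3, 30 and 69 at the start, stood far above the 4 and 5 of Prkaa2. Prkag2 and Stk11, 2 of 10 against 4.28% of all genes, had a common Sox6 peak in or within 20 kb.

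Among the relatives of Ppargc1a, corepressors and receptor partners, 14 of 20 starts and 17 of 21 bodies were higher and 2 bodies lower. Mef2d, a muscle transcription factor, had 7 and 18 start reads against 8 and 3 of input (log2 4.61 ± 0.59, adjusted p = 2.97e-14), and Yy1 had 3 and 4 against 1 and 4 (3.91 ± 1.01, adjusted p = 0.000912). At the low end were Perm1, with 0 and 2 reads (-0.10 ± 1.20), and Pparg, the receptor of fat cells, with 1 and 1 (0.18 ± 1.21), whose body was lower than input (log2 -1.33 ± 0.22, adjusted p = 1.27e-06). Ncoa1, 1 of 21, had a common Sox6 peak.

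Of the genes for mitochondrial DNA upkeep and the NRF-2 subunits, 8 of 12 starts and 8 of 13 bodies were higher and 0 lower. Polg2, the accessory subunit of the mitochondrial DNA polymerase, led with 21 and 67 reads (log2 4.64 ± 0.32, adjusted p = 2.12e-46), followed by Gabpb1 (4.09 ± 0.60, adjusted p = 6.30e-10). Polg, the catalytic subunit of the same polymerase, had 0 and 1 start reads (-1.38 ± 1.65) and yet passed over its body (log2 0.97 ± 0.22, adjusted p = 0.00114), and Polrmt had 6 and 5 (0.80 ± 0.53). The start of Polg thus held far fewer Pol II reads than that of its partner. Over its body, Polg2 had 18 and 33 Pol II reads against 177 and 140 of input (log2 0.79 ± 0.28).

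Of the other sirtuins, 4 of 6 starts and 4 of 6 bodies were higher. Sirt6 (log2 3.09 ± 0.34, adjusted p = 1.32e-14) and Sirt3 (2.54 ± 0.45, adjusted p = 4.56e-06) led, and Sirt5 (-1.62 ± 1.65) and Sirt2 (0.94 ± 0.79) did not pass. The window of Sirt3 also holds the start of Psmd13, and that of Sirt2 the start of Nfkbib, each on the opposite strand, and reads of such pairs cannot be told apart.

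Of the fatty acid oxidation genes, which the receptors control, 14 of 20 starts and 10 of 20 bodies were higher and 2 bodies lower. The highest starts were Fabp3, the fatty acid binding protein of muscle and heart (log2 3.16 ± 0.57, adjusted p = 3.32e-06), and Acadm, a dehydrogenase of β-oxidation (3.06 ± 0.47, adjusted p = 6.51e-08). Lpl and Angptl4, an enzyme that frees fatty acids and its inhibitor, had 0 and 0 Pol II reads at the start, and their bodies were the 2 that were lower (log2 -0.83 ± 0.30, adjusted p = 0.0113, and -1.70 ± 0.72, adjusted p = 0.0147). Median start ratios of the 5 lists were 2.77, 2.81, 2.52, 2.02 and 2.19 in this order, beside 2.24 for the 10 genes and 1.29 for all genes. A common Sox6 peak was near 0 genes of the last 3 lists, and Sox6 passed at 0 of 9, 17, 12, 6 and 20 tested starts of the 5 lists, against 0.394% of all genes. Over bodies Sox6 passed for 1 of 10 and 3 of 21 genes of the first 2 lists and for 0 of 13, 6 and 20 of the others, against 2.57% of all genes.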

How the data were processed

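Sox6 ChIP, Pol II ChIP and input DNA were sequenced from mouse fetal myotubes, 2 libraries each. The authors aligned reads with Bowtie 0.12.5 to NCBI Build 37, kept uniquely mapped reads, called peaks with SISSRs (fragment length 450 bp) against input, and took as common the Sox6 peaks of both replicates within 50 bp. The deposited files hold positions of reads and of peaks, with no count, normalization or usable score (the Sox6 score is 0 throughout and the Pol II score is unnamed).

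Reads were counted by their 5′ end within 500 bp of each start site, from 500 bp past it to the gene end (bodies of 1000 bp or more), and in 450 bp around Sox6 peaks. Gene models were GENCODE vM1 transcripts of the same build: the longest of those starting within 500 bp of a RefSeq start (placed by exact match of RefSeq GRCm38.p6 promoter sequences), joined, where none of these carried a CCDS tag, by the transcripts with that tag, and failing both the longest transcript. The model started at a RefSeq start for 16862 genes, was another CCDS transcript for 4286 and the longest for 1773. For Ppargc1a the transcripts at the RefSeq start carried no CCDS tag and were shorter, so the CCDS transcript was taken. Each ChIP was compared with input by a quasi-Poisson model with library size as offset, dispersion moderated with limma 3.58.1 (R 4.3.3) and floored at 1, a two-sided F test, and Benjamini-Hochberg adjustment over all features with at least 10 reads, at 0.05. This form was chosen because log2 values of low counts were biased when tested on simulated data. Single-replicate Sox6 peaks were tested with the other replicate by the exact binomial test, and values are given for those not called in that replicate. Folds and RPM use all reads of a library. Repeated positions (2.96% to 7.88% of reads) were kept. Values after ± are standard errors. Intervals and limits of 3 reads cover counting error only, and reads after 18 PCR cycles are not independent molecules.

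The genes and lists were chosen with earlier results of these data known. The text names all 10 genes, every Sox6 peak in or within 20 kb, and Actb. Of each list it names the 2 highest and 2 lowest start ratios. The peaks upstream of Prkaa2, the list genes with a Sox6 peak and the gene segments described were named after their values were seen. So were Plpp3, Ube2h, Herc4, Trmt112, Prdx5, Psmd13 and Nfkbib. Alternatives were other scalings, windows, filters, starts and tests, a replicate block and each library left out. Python 3.11.15, numpy 2.4.6, pandas 2.3.3, scipy 1.17.1 and matplotlib 3.10.9 were used.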

Additional observations from a re-analysis of the deposited data

How the results depend on the processing

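At start sites the count of genes with more Pol II than input, 6, became 2 with at least 30 reads required (2 genes tested), 2 with the Sox6 libraries in place of input (5 tested) and 1 with 250 bp on each side (4 tested), and 3 to 7 with a library left out. Over bodies, the 3 genes with less Pol II became 1 when scaled to bins without peaks and 0 to 4 with a library left out, and the ratio of Ppargc1a became 0.03 under that scaling. Over all genes, Pol II was higher at 5040 starts against Sox6 in place of input and at 4716 without Pol II replicate 2, and lower over 2271 bodies when scaled to bins and 1482 without Pol II replicate 2. The 1 body with more Sox6 became 0 with positions counted once or the whole gene counted, 2 with the replicate block and 0 to 2 with a library left out. Sox6 calls over all genes moved most: 74 starts became 416 and 0 with limma on 0.5 reads or 0.5 RPM added, 36 and 138 in windows of 250 bp and 1 kb and 0 to 56 with a library left out, and 506 bodies became 844 scaled to bins, 1118 and 296 with limma, 2667 with the replicate block and 44 to 2772 with a library left out. Of the 10 genes, 2 had a common Sox6 peak within 50 kb or when each peak went to its nearest gene. The methods give each ChIP experiment an input, but neither they nor the labels say which numbers belong together, and same-numbered libraries did not deviate together (r = -0.02 for Pol II and 0.07 for Sox6 with input, over 16925 genes). Not all of the start sites counted under stricter settings were among the 6. Those called with at least 30 reads were Ppard and Tfam. Those called with the Sox6 libraries in place of input were Nrf1 and Sirt1, which reached 10 reads through Pol II alone. The start called with 250 bp on each side was Ppard, which was not one of the 6. Of the 6, Ppargc1a and Tfam were tested with 250 bp on each side and not called, and the others had too few reads there. The replicate block left 5 start sites and 5 bodies with more Pol II, and put 4 bodies lower. The cause of these changes was not tested. The counts of 0 for Sox6 at starts and for Pol II at the Esrrg peaks, and the pass of the Prkaa2 intron 6 peak with the reads of replicate 1, were the same in every alternative run in which they could be tested. At most 8 Pol II and 3 Sox6 reads fell in the window of the start used for any of the 10 genes, which limits the precision there.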
